A study of Mus musculus with 4 samples.

Results

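Müller glia with high Gfap are the retinal Müller cells that carried abundant transcript of glial fibrillary acidic protein 1 day after light damage, and in undamaged retinae of the same mutant mice. The cells were selected on the deposited values themselves. A cell was taken as Müller glia if it held Rlbp1 and at least 3 of the 7 genes Slc1a3, Aqp4, Sox9, Dkk3, Car14, Abca8a and Kcnj10. It was kept if Gfap reached 5 or more per 10000 UMIs (unique molecular identifiers, the counted transcript molecules) and if Rsad2, Ifit1 and Ifit3 together stayed below 5 per 10000 UMIs. This gave 589 high-Gfap cells of 26543 cells in 4 libraries. They are compared below with the other 2722 Müller glia, which had less Gfap, and 148 Müller glia with high antiviral transcripts were left out of both classes. Levels of the selecting genes are given as a description only.

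The retinae came from Abca4-/-Rdh8-/- mice on C57BL/6J, aged 6 weeks, which lack both genes in every group. These genes clear all-trans-retinal from photoreceptors, and the mice are used as a light-sensitive model of retinal degeneration. One library was made per group, each from 4 retinae of 2 mice pooled, with about 15000 cells loaded. The unbleached vehicle group received DMSO and no bleaching light. The bleached vehicle group received DMSO and was taken 1 day after 30 min of white light at 10000 lux. The rolipram group received 2 mg/kg rolipram, an inhibitor of cAMP-degrading phosphodiesterase 4. The BC11-38 group received 2 mg/kg BC11-38, an inhibitor of phosphodiesterase 11. Both groups were taken 1 day after the same light. Dark adaptation of 24 h, pupil dilation with 1% tropicamide and intraperitoneal injection 30 min before light are described for bleached mice. A further drug group named in the series text is not analysed here. With 1 library per group, a difference between groups cannot be told apart from a difference between pools of mice or between libraries, and intervals cover counting error only.

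Müller glia are the radial support cells of the retina. They recycle glutamate through Slc1a3 and glutamine synthetase (Glul), carry retinoids with Rlbp1, and move potassium and water through Kcnj10 and Aqp4. After injury they enter reactive gliosis, in which the intermediate filament proteins Gfap and vimentin accumulate and cytokines of the interleukin-6 family, such as Lif, act through gp130 receptors and Stat3. Retinal astrocytes are a separate glial type of the nerve fibre layer that expresses Gfap at rest and carries Pax2, Pdgfra and S100b.

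The promoters of Gfap and of Steap4, a metalloreductase of the acute-phase response, are shown because Gfap defines the cells, Steap4 was higher with it in each library compared, and both hold the core letters of a STAT site, TTCNNNGAA. The search covered both strands from 250 bases before to 50 bases after each gene start in RefSeq (GRCm38.p6). Steap4 was picked after its values were seen. Gfap lies on chromosome 11 at 102887336 to 102897200, and the window shown is chr11:102897191-102897350 on the minus strand, from 150 bases before to 10 bases after the start. Steap4 lies on chromosome 5 at 7960472 to 7982213, and its window is chr5:7960322-7960481 on the plus strand. Capitals mark the motif, which begins at position -2 from the gene start in Gfap and at -116 in Steap4.
Gfap: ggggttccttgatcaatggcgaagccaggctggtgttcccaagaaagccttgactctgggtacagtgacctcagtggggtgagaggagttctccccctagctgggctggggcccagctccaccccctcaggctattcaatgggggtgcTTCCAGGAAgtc
Steap4: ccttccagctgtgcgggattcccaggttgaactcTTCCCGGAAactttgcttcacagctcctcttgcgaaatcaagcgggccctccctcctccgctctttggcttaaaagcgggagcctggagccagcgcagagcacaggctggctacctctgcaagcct
The motif stood in 8.3% of all 32851 promoters. Among 27 promoters of the 19 matched genes of a list of Stat3 and acute-phase genes it stood in 2, or 7.41%, those of Socs3 and Steap4. The AP-1 motif TGANTCA stood in 7.81% of all promoters and in 4 of the 27, or 14.8%. A match is a description of these letters only.

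The label was compared on Crym and Glul, which did not select the cells. Crym was not in the list of Müller markers and was added outside the plan. The rods used beside them were cells with rod markers and no Rlbp1 UMI that failed the Müller rule. Low levels of Müller genes in rods were therefore likely from the start. Outside the selecting genes that list also held Vim, which is given below, and Apoe. Crym, a crystallin gene of Müller glia, stood at 2990 CPM (the UMIs of a gene per 1000000 UMIs summed over the cells of the class) in unbleached vehicle, 3454 in bleached vehicle and 2028 under rolipram, in high-Gfap cells with no UMI of Pax2, Pdgfra or S100b. In rods of the same libraries it stood at 11.8, 61.1 and 3.23 CPM. Glul stood at 2282, 1250 and 5132 CPM in those high-Gfap cells and at 99.9, 102 and 121 in rods. However, 53 of the 589 cells held a UMI of at least 1 of those astrocyte markers, namely 8 of 104 in unbleached vehicle, 24 of 421 in bleached vehicle, 16 of 58 in rolipram and 5 of 6 in BC11-38. As shares these were 7.69%, 5.70%, 27.6% and 83.3%, against 3.34%, 4.25%, 4.04% and 6.90% of the other Müller glia. Pax2, the transcription factor of astrocytes and the optic stalk, separated the classes more sharply, being found in 30 high-Gfap cells (4, 8, 14 and 4 by library) and in 1 of 2722 other Müller glia.

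The 30 cells with Pax2 stood apart from the remainder on several genes. Their median Gfap was 127 per 10000 UMIs in unbleached vehicle, 161 in bleached vehicle, 85.2 in rolipram and 12.1 in BC11-38. Rlbp1 was 370, 133, 361 and 683 CPM in the same order, and Crym was 0, 0 and 36.6 CPM in the first 3 libraries. Aqp4 had no UMI in 3 of the libraries and was found in 1 of the 14 rolipram cells. Rgs5, a gene usually used to mark pericytes, stood at 3369, 3221, 2866 and 858 CPM, and at 0 and 3.04 CPM in the vehicle high-Gfap cells without astrocyte markers. These cells thus carried the astrocyte markers with high Gfap, little Rlbp1 and almost no Crym or Aqp4, which goes against the Müller label for them. Shares, counts and ratios below are therefore also given without the 53 astrocyte-marker cells where those cells change them. In the cells left, the 6 astrocyte-list genes found in the files summed to 215, 221 and 157 CPM, against 151, 176 and 107 in other Müller glia. Pax2, Pdgfra and S100b add nothing to the first 3 sums because cells with them were removed.

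**Figure D1:**
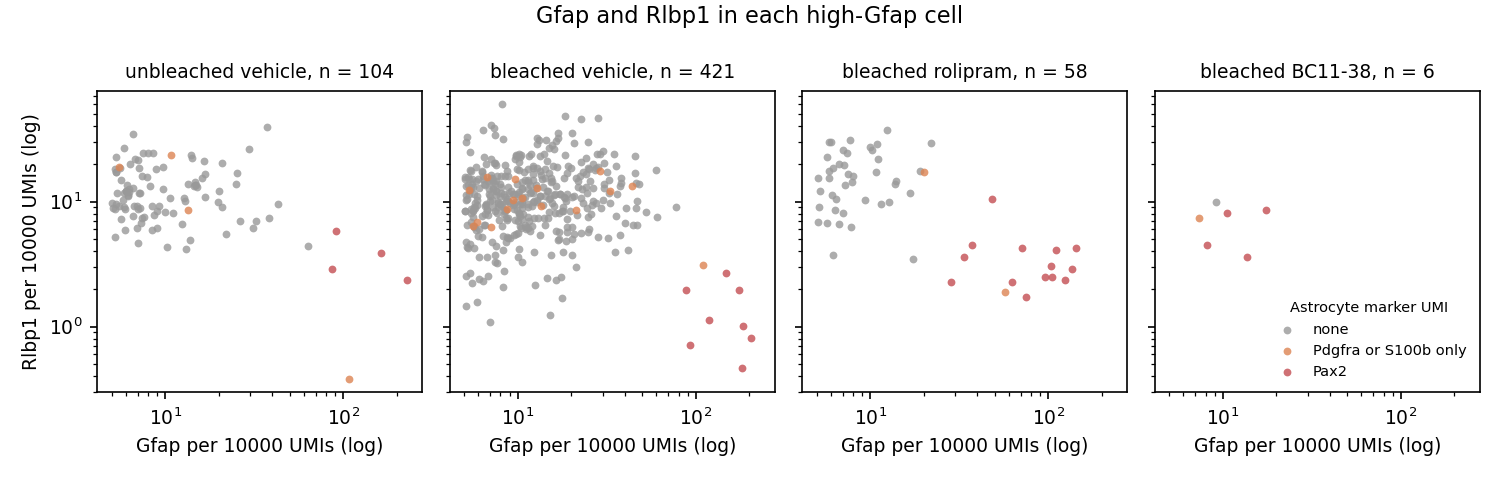
Each point is 1 high-Gfap cell, with Gfap on the horizontal and Rlbp1 on the vertical axis, both per 10000 UMIs on log axes, 1 panel per library (n = 104, 421, 58 and 6) and colour for astrocyte-marker UMIs. Outside BC11-38 the cells with Pax2 lie at high Gfap and low Rlbp1, with median Gfap by library of 127, 161 and 85.2.

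Markers of other cell types were also measured in the high-Gfap cells. Summed microglial markers stood at 6.24, 4.04, 1.70 and 10.7 CPM in the 4 libraries, against 3.62, 44.6, 5.53 and 3.72 in the other Müller glia, so that those of bleached vehicle stood apart. Summed rod markers stood at 612, 746, 1189 and 2912 CPM, against 944, 658, 1715 and 1643 in the other Müller glia. The 6 BC11-38 cells were all among the cells with the highest doublet scores, against 7 of 104, 26 of 421 and 4 of 58 elsewhere. Across libraries, 92 cell barcodes occurred more than once, on 184 cells of which 6 were high-Gfap cells. The part of doublets and of free RNA in the results was not tested.

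Gfap was spread widely above the limit. The median of the high-Gfap cells was 8.46 per 10000 UMIs in unbleached vehicle, 10.9 in bleached vehicle, 10.1 in rolipram and 9.84 in BC11-38, and the highest cells reached 229, 203, 143 and 17.5. The cell nearest above the limit had 5.02 and the nearest below had 4.99. Summed over cells, Gfap stood at 2082, 1939, 3862 and 1246 CPM, and at 1244, 1467 and 839 in the first 3 libraries without astrocyte-marker cells. Rolipram cells were thus highest with the astrocyte-marker cells and lowest of these 3 without them. Below the limit, Gfap in the other Müller glia was 112, 150, 43.1 and 2.73 CPM. No Gfap UMI was found in 223 of 419, 235 of 683, 901 of 1040 and 573 of 580 of them. Rods, which should lack the gene, had 4.88, 37.9, 1.57 and 0.376 CPM.

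High-Gfap cells made up very different parts of the Müller glia. They were 104 of 523 in unbleached vehicle, or 19.9% (exact 95% interval 16.6 to 23.6). They were 421 of 1104 in bleached vehicle, or 38.1% (35.3 to 41.1). In rolipram they were 58 of 1098, or 5.28% (4.04 to 6.78), and in BC11-38 they were 6 of 586, or 1.02% (0.377 to 2.22). None of the 4 intervals overlap. Without astrocyte-marker cells the shares were 19.2%, 37.8%, 4.04% and 0.185%, the last being 1 cell. The order of the libraries was the same with the limit at 2 per 10000 UMIs (33.7%, 57.9%, 11.8% and 1.37%), at 10 per 10000 UMIs (8.03%, 21.6%, 2.73% and 0.512%), and after thinning each cell to 2000 UMIs (32.3%, 49.4%, 10.9% and 1.76%).

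The depth of the cells moved with these shares. High-Gfap cells had median totals of 20086, 17634, 9140 and 12273 UMIs, above the 11352, 15234, 5583 and 6870 of the other Müller glia. Among Müller glia of at least 10000 UMIs the share was 28.1% (95 of 338) in unbleached vehicle, 41.0% (346 of 843) in bleached vehicle, 29.8% (28 of 94, interval 20.8 to 40.1) in rolipram and 9.52% (6 of 63) in BC11-38. Without astrocyte-marker cells these became 27.2%, 40.7%, 20% (15 of 75, interval 11.7 to 30.8) and 2.0% (1 of 50). Among cells of 5000 to 10000 UMIs they were 3.57% (5 of 140), 26.6% (51 of 192), 3.52% (21 of 597) and 0.0% (0 of 400). The rolipram library thus stood below the unbleached vehicle library over all cells, but their intervals overlapped at each depth. These overlaps rest in part on few cells, such as 5 of 140 in unbleached vehicle. After thinning each cell to 2000 UMIs the intervals did not overlap. They were 28.3 to 36.5 around 32.3% in unbleached vehicle and 9.08 to 12.9 around 10.9% in rolipram. The part of depth in the gap was not tested. Below 5000 UMIs, where 1 or 2 Gfap UMIs can reach the limit, the shares were 8.89% (4 of 45), 34.8% (24 of 69), 2.21% (9 of 407) and 0.0% (0 of 123). Bleached vehicle was highest in each of the 3 depth ranges.

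Transcripts of the sex chromosomes also moved with the library. The labels do not give the sex of the mice. Xist was found in 0.346% of the bleached vehicle Müller glia and in 48.5% and 51.7% of those in unbleached vehicle and rolipram. Among Müller glia that held Y-linked UMIs but no Xist (Y-positive, Xist-free cells), the share of high-Gfap cells was 29.9% (63 of 211, interval 23.8 to 36.5) in unbleached vehicle and 39.0% (355 of 910, 35.8 to 42.3) in bleached vehicle. It was 6.31% (21 of 333) in rolipram and 0.0% (0 of 213, which allows up to 1.72% by the exact interval) in BC11-38. Among those with Xist and no Y-linked UMIs it was 8.33% (18 of 216, 5.01 to 12.9), 4.40% (23 of 523) and 2.14% (6 of 281) in unbleached vehicle, rolipram and BC11-38, and bleached vehicle had 1 such cell. Without astrocyte-marker cells the Y-positive, Xist-free shares were 30.1%, 38.8%, 4.84% and 0.0% in the 4 libraries. Those with Xist and no Y-linked UMIs were then 7.69% in unbleached vehicle, 3.21% in rolipram and 0.389% (1 of 257) in BC11-38. The unbleached and bleached vehicle shares thus lay closer within cells with Y-linked UMIs, and their intervals overlapped narrowly. At 10000 or more UMIs, astrocyte-marker cells kept, the Y-positive, Xist-free shares were 33.7% in unbleached vehicle and 41.0% in bleached vehicle. They were 27.5% (11 of 40) in rolipram and 0.0% (0 of 31) in BC11-38. With Xist and no Y-linked UMIs they were 15.0% in unbleached vehicle, 29.4% (10 of 34) in rolipram and 24.0% (6 of 25) in BC11-38. At that depth the rolipram and unbleached vehicle intervals overlapped in both sets.

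**Figure D2:**
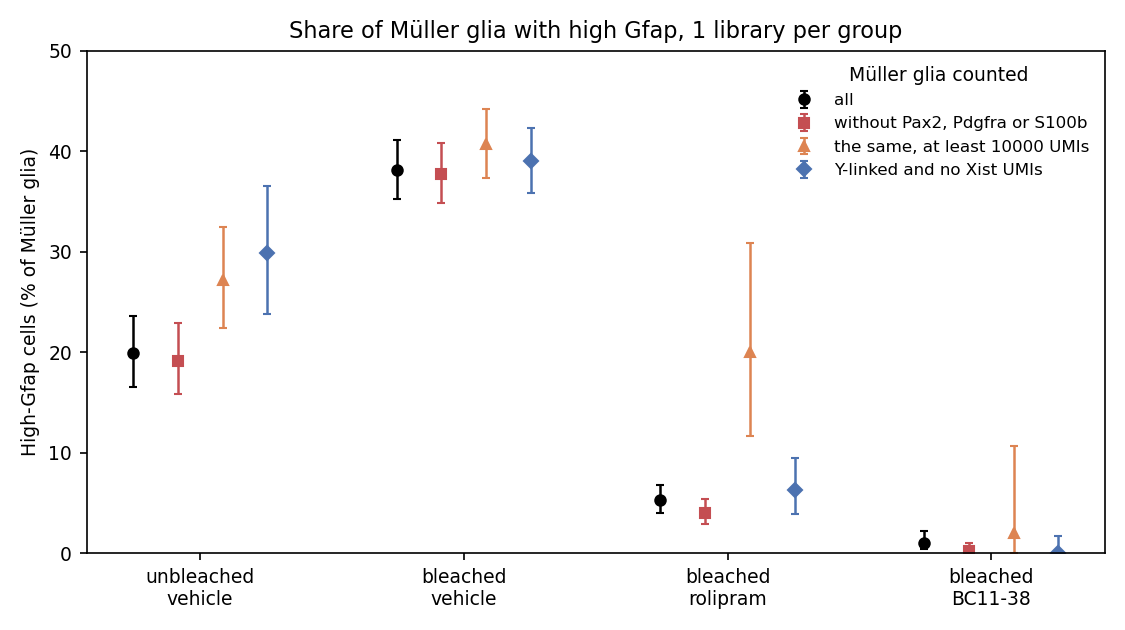
Points give the percentage of Müller glia with high Gfap in each library, with exact 95% binomial intervals that cover counting error, for all cells and for subsets of cells. Over all cells bleached vehicle was highest at 38.1% and BC11-38 lowest at 1.02%. Among cells of at least 10000 UMIs without astrocyte markers, rolipram (20%) and unbleached vehicle (27.2%) had overlapping intervals.

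High-Gfap and other Müller glia were next compared inside each library, with UMIs summed per class and the 4 libraries as replicates. This asks which genes accompany high Gfap in the same pool, but each pool held 2 mice, so the mouse was not held fixed. Xist was found in 31.7% of high-Gfap cells and 53.2% of other Müller glia in unbleached vehicle. In rolipram these were 46.6% and 53.1%, while the 6 high-Gfap cells of BC11-38 all held Xist. Within libraries, only Steap4 and Serpina3n are also given below for Y-positive, Xist-free cells. For other genes and the gene lists, the part of the sex-chromosome mix was not tested. By limma on log2(CPM + 5) with library as a block, 0 of 9079 genes (0.0%) passed an adjusted p of 0.05, with 569 at an unadjusted p under 0.05. By limma voom 40 of 9079 genes (0.441%) passed, 34 higher and 6 lower. In 30 of the 34 higher genes, under 25% of the UMIs of high-Gfap cells came from cells without astrocyte markers. These included the astrocyte markers Pax2, S100b and Pdgfra and the pericyte marker Rgs5. The other 4 were Chil1, Gbp2, Gpr37l1 and Steap4. Apart from Steap4 and Gbp2 and the markers, genes of these calls are named after their values were seen.

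Without astrocyte-marker cells, and without the BC11-38 library where 1 cell remained, 3 libraries could be compared. By limma 0 of 9038 genes passed, with 718 at an unadjusted p under 0.05, and by limma voom 7 passed (0.0775%). With the vehicle libraries alone limma called 10 of 8943 genes (0.112%), among them Serpina3n, higher by 0.89 on the log2 scale (adjusted p = 0.0250), and Hmga2, at -1.67 (adjusted p = 0.0144). That fit has 2 libraries, and its calls were seen before they were named. Of all genes tested, 1341 (14.8%) were higher in high-Gfap cells in all 3 libraries and 1385 (15.3%) were lower in all 3. The counts for each gene list below are to be read against these 2 shares and against a median log2 difference of -0.02 over all genes. With astrocyte-marker cells and BC11-38 kept, 8.55% of genes were higher and 14.2% lower in all 4 libraries, with a median of -0.12. The log2 differences below are high-Gfap minus other, on the log2(CPM + 5) scale, and come from the fit of 3 libraries unless stated. That fit was chosen after seeing the data, and no gene in it passed the threshold by limma.

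The acute-phase genes that act with Stat3 leaned to the high-Gfap side. Of 22 tested, 12 were higher in all 3 libraries and 1 was lower in all 3, with a median log2 difference of 0.26. Over all 4 libraries with astrocyte-marker cells kept, 4 of 22 were higher in each and 0 lower, with a median of 0.24. Serpina3n, a secreted protease inhibitor of reactive glia, stood at 278 CPM in high-Gfap cells and 129 in other cells of unbleached vehicle. It stood at 264 and 161 in bleached vehicle and at 462 and 50.6 under rolipram, so that the classes did not overlap. Its log2 difference was 1.61 (SE 0.37, limma adjusted p = 0.440). Steap4 stood at 38.5 and 18.2, at 36.4 and 18.7, and at 28.0 and 5.81 CPM in the same order, a difference of 1.10 (SE 0.20, limma adjusted p = 0.322). Steap4 and Serpina3n were each higher in 3 of 3 libraries also among the Y-positive, Xist-free cells. Timp1, an inhibitor of metalloproteinases, stood at 79.0 and 54.1, 152 and 110, and 33.6 and 9.57. The cytokine Lif stood at 24.0 and 6.94, 83.1 and 59.3, and 13.98 and 7.69, and the oncostatin M receptor Osmr at 107 and 76.1, 132 and 115, and 104 and 53.7. All of these were higher with high Gfap in each library. Lcn2, the iron-sequestering lipocalin, was not: it stood at 131 and 183 in unbleached vehicle, 425 and 252 in bleached vehicle and 330 and 39.2 under rolipram.

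Genes of gliosis at the cell membrane and matrix followed the same side. Of 13 tested, 6 were higher in all 3 libraries and 0 were lower in all 3, with a median of 0.54. Over all 4 libraries with astrocyte-marker cells kept, 2 of 13 were higher in each and 1 lower, with a median of 0.32. Cd44, the hyaluronan receptor, stood at 450 in high-Gfap and 261 CPM in other cells of unbleached vehicle, 641 and 548 in bleached vehicle, and 375 and 145 under rolipram. The calcium-binding S100a6 stood at 2936 and 1905, 3018 and 2903, and 2682 and 934. The gap was smallest in bleached vehicle for both genes. The galectin Lgals3 stood at 712 and 359, 845 and 850, and 434 and 152, so that its classes were level in bleached vehicle. With the astrocyte-marker cells and BC11-38 kept, the differences of Lgals3 and Osmr turned to -0.82 and -0.34. Of the 3 metallothioneins, which bind zinc and copper, Mt1 and Mt2 were higher in all 3 libraries. Mt1 stood at 13310 and 8475, 17630 and 13190, and 14240 and 4835 CPM (log2 difference 0.88, limma adjusted p = 0.620), and Mt2 at 2870 and 1750, 3183 and 2514, and 1994 and 605. Vim, the filament partner of Gfap, stood at 2230 and 1997, 2169 and 2298, and 2324 and 1253, with no common direction.

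Genes of progenitor Müller glia leaned the other way, and homeostasis genes of resting Müller glia did so mainly in their median. Of 16 homeostasis genes tested, 2 were higher and 4 lower in all 3 libraries, with a median of -0.19. Of 16 progenitor genes 1 was higher and 6 lower, with a median of -0.23. Over all 4 libraries with astrocyte-marker cells kept, homeostasis genes counted 0 higher and 3 lower of 17, with a median of -0.60. The 3 lower are 17.6%, against 14.2% of all genes. Progenitor genes then counted 1 higher and 6 lower of 16, with a median of -0.22. Hes5, a Notch target, stood at 178 in high-Gfap and 304 CPM in other cells of unbleached vehicle, 80.5 and 124 in bleached vehicle, and 283 and 495 under rolipram (log2 difference -0.71, limma adjusted p = 0.216, limma voom adjusted p = 0.0476). Between libraries, Hes5 ratios changed side among the Y-positive, Xist-free cells, as given below. The part of the sex-chromosome mix in its difference within libraries was not tested. Hes1, a second Notch target, stood at 715 and 1290, 510 and 536, and 671 and 1222. Of 17 growth factor and wound genes 2 were higher and 4 lower, with a median of -0.10. Over all 4 libraries with astrocyte-marker cells kept, 0 were higher and 1 lower, with a median of 0.05, so that their median did not lean low. The BMP target Id1 stood at 199 and 339, 336 and 471, and 294 and 507. Ccn2, a matrix protein gene, stood at 137 and 380, 72.4 and 96.4, and 89.5 and 415, and Vegfa at 81.7 and 219, 73.2 and 93.3, and 132 and 205. With the astrocyte-marker cells and BC11-38 kept, Id1, Ccn2 and Vegfa turned to 0.04, 0.54 and 0.14. Glul stood at 2282 and 4766 in unbleached vehicle and 5132 and 9210 in rolipram, but at 1250 and 1194 in bleached vehicle.

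Amino-acid stress genes under Atf4 also leaned to the low side. Of 15 tested, 0 were higher and 5 lower in all 3 libraries, with a median of -0.14. Over all 4 libraries with astrocyte-marker cells kept, 0 were higher and 6 lower, with a median of -0.31. The cystine carrier Slc7a11 stood at 17.6 in high-Gfap and 21.4 CPM in other cells of unbleached vehicle, 42.2 and 103 in bleached vehicle, and 5.59 and 24.6 under rolipram. Interferon genes counted 7 higher and 1 lower of 17, lysosomal and phagocytic genes 7 higher and 0 lower of 19, and cell-death genes 6 higher and 2 lower of 12. AP-1 genes were near the background, with 2 higher and 3 lower of 22. Over all 4 libraries with astrocyte-marker cells kept, interferon genes counted 5 higher and 0 lower of 18, and lysosomal genes 6 and 3 of 19. Cell-death genes then counted 4 higher and 0 lower of 12, and AP-1 genes 0 and 4 of 22. Among genes named after their values were seen, the G-protein subunit Gna14 was the only higher call of limma voom, with 68.9 and 34.7, 64.2 and 29.7, and 44.8 and 22.4 CPM (voom adjusted p = 0.0125). Besides Hes5 its lower calls were Ccl2, Cartpt, Cadps, Syt4 and the predicted gene Gm13889. Cartpt, a neuropeptide gene, stood at 3.74 and 14.3, 3.91 and 34.9, and 0 and 45.1 CPM, and Ccl2, a chemokine, at 0 and 0.793, 12.3 and 50.9, and 0 and 12.7. In bleached vehicle the summed microglial markers also differed between the classes, at 3.77 CPM in these high-Gfap cells and 44.6 in the other Müller glia, and their part in the Ccl2 difference was not tested. Summed horizontal-cell markers stood at 0.0 CPM in these high-Gfap cells and 71.0 in the other Müller glia under rolipram. In unbleached vehicle they stood at 0.0 and 2.10, and in bleached vehicle at 1.88 and 1.70. The part of RNA from other cell types in the Cartpt, Cadps and Syt4 differences was not tested.

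Serpina3n, Mt1, Cd44 and Glul were followed across steps of Gfap among the high-Gfap cells without astrocyte markers, and few were graded. Cells were split at 10 and 20 per 10000 UMIs, giving 61, 21 and 14 cells in unbleached vehicle, 175, 141 and 81 in bleached vehicle, and 28 and 13 under rolipram with 1 cell in the top step. From the other Müller glia up through the 3 steps, Serpina3n stood at 129, 228, 325 and 416 CPM in unbleached vehicle. In bleached vehicle it stood at 161, 250, 242 and 332, and in rolipram at 50.6, 535 and 241 without the top step. Thus Serpina3n climbed at every step in unbleached vehicle alone. Mt1 stood at 13190, 16700, 17260 and 20140 in bleached vehicle, at 8475, 12060, 17090 and 12790 in unbleached vehicle, and at 4835, 16370 and 7460 in rolipram. Cd44 stood at 548, 613, 634 and 712 in bleached vehicle, at 261, 455, 395 and 513 in unbleached vehicle, and at 145, 405 and 287 in rolipram. Mt1 and Cd44 were thus graded in bleached vehicle and in neither other library. Glul stood at 4766, 2374, 2441 and 1656 in unbleached vehicle, at 1194, 1416, 1104 and 1166 in bleached vehicle, and at 9210, 4718 and 6460 under rolipram, with no even course. The top step in unbleached vehicle rests on 14 cells.

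**Figure D3:**
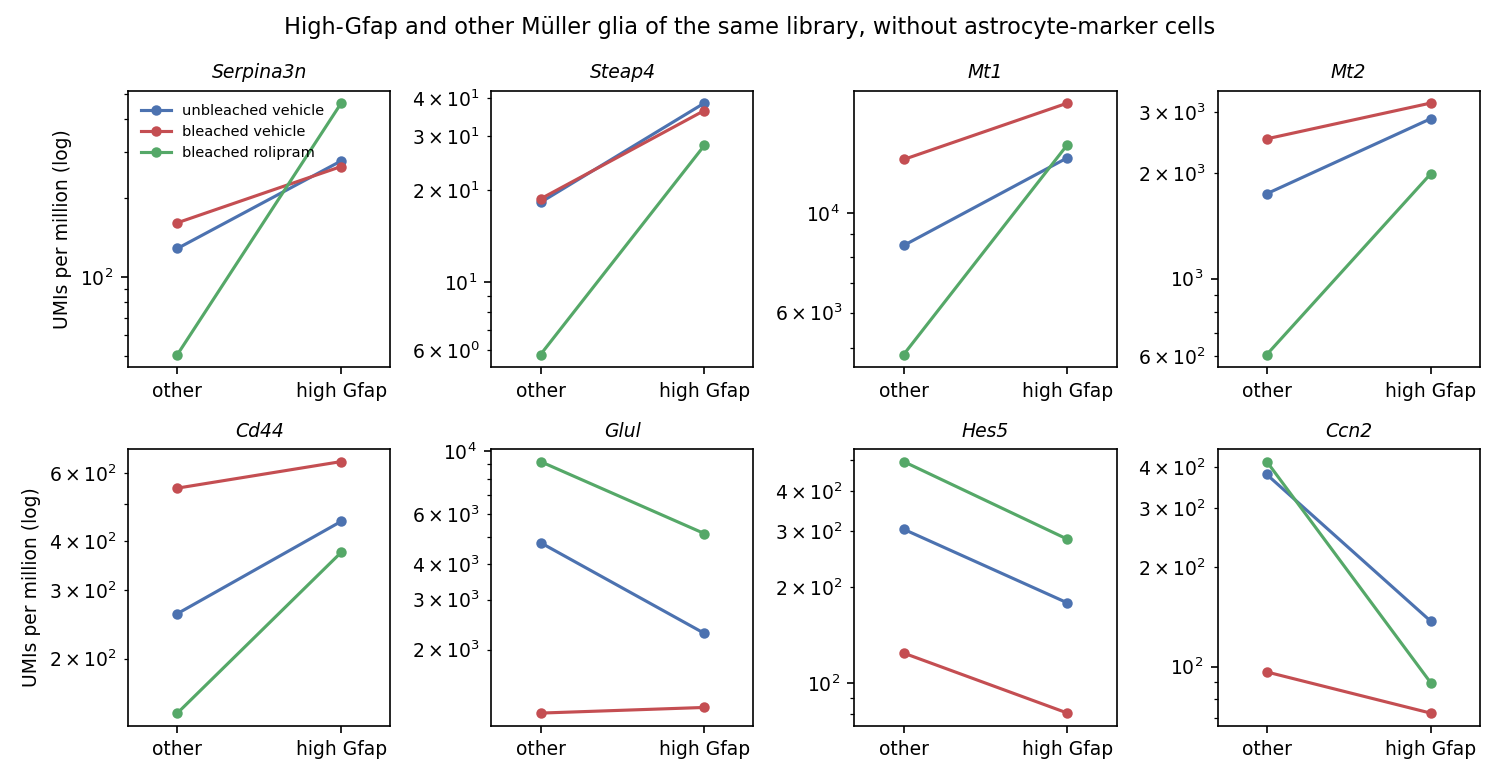
CPM (log axes) of 8 genes in other and in high-Gfap Müller glia of the same library, without astrocyte-marker cells, with 1 line per library (unbleached vehicle, bleached vehicle and rolipram) and no error bar since each point is 1 summed value. Lines for Serpina3n and Steap4 climb in all 3 libraries and those for Hes5 descend in all 3.

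Light damage was examined by comparing high-Gfap cells of the bleached and unbleached vehicle libraries. With 1 library each there is no test, and genes with at least 100 UMIs over both were read by the ratio of CPM with an exact 95% Poisson interval. After bleaching, 100 of 8804 genes (1.14%) lay 2-fold or more above, and 30 (0.341%) lay 2-fold or more below. In the other Müller glia 374 of 10216 genes (3.66%) were higher and 275 (2.69%) lower, with more UMIs behind each class. Without astrocyte-marker cells the high-Gfap counts were 104 (1.21%) and 25 (0.292%) of 8571. Among the Y-positive, Xist-free cells they were 138 and 14 of 8271, against 295 and 114 of 9508 in the other Müller glia. In both sets of cells a smaller share of the genes read lay past 2-fold in high-Gfap cells than in other Müller glia.

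The genes of largest ratio after bleaching included growth and remodelling genes. Hmga2, a chromatin protein of growing cells, had 189 UMIs in bleached and 1 in unbleached high-Gfap cells, or 25.4 and 0.480 CPM (ratio 53.0, interval 9.40 to 2104). The membrane protein gene Emp1 stood at 47.5 and 5.76 CPM, an 8.25-fold ratio (4.66 to 16.1), and Tm4sf1 at 28.0 and 3.84, a 7.29-fold ratio. Kitl, the ligand of the Kit receptor, stood at 93.3 and 17.3, a 5.40-fold ratio (3.86 to 7.77). Gch1, Cdsn, Arrdc4 and Synpo had ratios of 7.23, 4.75, 4.67 and 4.33. For Hmga2 the other Müller glia held more, with 154 CPM after bleaching and 5.72 without it. On the lower side, Zbtb16, a glucocorticoid-responsive repressor, stood at 7.54 and 29.8, or 3.95-fold lower (2.71 to 5.77). Shisal2b, the heat-shock gene Hspa1b, Cmtm5 and Tmem132b were 3.04-fold, 2.70-fold, 2.46-fold and 2.43-fold lower. Hes5 stood at 81.3 and 200, or 2.46-fold lower. Among the Y-positive, Xist-free cells, its ratio turned to 1.40, and that of Ecrg4 to 2.29. Ecrg4 was 3.22-fold lower over all high-Gfap cells but had 1 UMI in each library outside the astrocyte-marker cells. Without those cells the ratios of the 8 higher genes ran from 3.99 for Synpo to 50.7 for Hmga2, with Emp1 at 8.82 and Kitl at 5.70. The lower genes named here other than Ecrg4 ran from 2.22-fold lower for Hes5 to 3.89-fold lower for Zbtb16.

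By gene list, the medians of the high-Gfap cells lay nearer to 0 than those of the other Müller glia for gliosis, Atf4 and homeostasis genes but not for acute-phase genes. Of 22 Stat3 and acute-phase genes, 4 lay 2-fold or more above unbleached vehicle and 0 below, with a median log2 ratio of 0.38 against 0.27 in the other Müller glia. Lif stood at 80.5 and 21.6 CPM (ratio 3.73, 2.75 to 5.16), Clcf1 at 48.2 and 14.9, and Lcn2 at 480 and 179 (ratio 2.69, 2.41 to 2.996). Serpina3n, in contrast, was at 383 and 441, and at 264 and 278 without astrocyte-marker cells. Of 14 gliosis genes 3 were higher, with a median of 0.39 against 1.04, and of 16 Atf4 genes 5 were higher, with a median of 0.57 against 1.44 and 12 of 18 higher. Asns, which makes asparagine, stood at 49.3 and 15.4 (ratio 3.21), and at 101 and 17.4 in other Müller glia. Nupr1, a stress-response chromatin protein, stood at 1332 and 556 (2.40-fold) and at 1944 and 489 in the others (3.98-fold). Of 15 homeostasis genes that did not select the cells, 0 were 2-fold higher and 1 was lower, with a median of -0.29 against -0.67, where 7 of 19 were lower. Glul stood at 1242 and 2202 in high-Gfap cells and at 1224 and 4813 in the others. The all-gene medians were 0.05 and 0.01. Without astrocyte-marker cells the medians of high-Gfap cells were 0.31 for acute-phase, 0.31 for gliosis, 0.58 for Atf4 and -0.30 for homeostasis genes. Whether high-Gfap and other Müller glia differed in their response was not tested. High-Gfap cells of both libraries passed the same Gfap limit, and the part of that selection in these medians was not tested either.

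Rolipram was compared with bleached vehicle in the same way, and shares its bleached vehicle library with the comparison above. In rolipram 223 of 8303 genes (2.69%) lay 2-fold or more above bleached vehicle and 488 (5.88%) below, and 391 of the 488 had an interval that excluded 1. Without astrocyte-marker cells, which leave 42 rolipram cells, the counts were 181 (2.27%) and 582 (7.29%) of 7980, with 298 of the 582 excluding 1. In other Müller glia 929 of 10490 (8.86%) were higher and 752 (7.17%) lower. Genes of largest ratio were Pax2, Glycam1, S100b, Cldn10, Lrrtm3, Slc4a4 and Ecrg4, with ratios from 36.0 for Pax2 to 13.4 for Ecrg4. Outside the astrocyte-marker cells the rolipram library had 0 UMIs of Pax2, Glycam1, S100b, Lrrtm3 and Ecrg4, 1 of Cldn10 and 2 of Slc4a4.

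The genes lowest in rolipram relative to bleached vehicle were spread over membrane and secreted proteins. Tm4sf1, Penk and C3 had 0 UMIs in rolipram and 208, 183 and 166 in bleached vehicle, which makes them at least 5.49-fold, 4.83-fold and 4.39-fold lower against a floor of 3 UMIs. Gpnmb, a glycoprotein of reactive and phagocytic cells, had 1 and 1315 UMIs, or 1.70 and 177 CPM. The serine protease gene Prss56 stood at 8.50 and 337 CPM, or 39.6-fold lower, and at 13.98 and 350 without astrocyte-marker cells. In the other Müller glia Prss56 stood at 40.4 and 870. Emp1, Stmn2 and Rpl10-ps3 each had 1 rolipram UMI outside the astrocyte-marker cells, against 325, 273 and 144 in bleached vehicle. Rpl10-ps3 is a pseudogene whose reads may be shared with near-identical copies.

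Listed genes outside the astrocyte-marker cells showed which stress genes were lower in rolipram high-Gfap cells. Nupr1 stood at 540 and 1383 CPM (ratio 0.390, 0.337 to 0.450), Cd44 at 375 and 641 (0.584, 0.488 to 0.694) and Lgals3 at 434 and 845 (0.513). Timp1 stood at 33.6 and 152 (0.222), Lif at 13.98 and 83.1 (0.168, resting on 5 rolipram UMIs), and the endothelin receptor Ednrb at 22.4 and 295 (0.0758). In the other Müller glia the ratios were 0.101 for Nupr1, 0.264 for Cd44 and 0.179 for Lgals3. Lcn2 stood at 330 and 425 in high-Gfap cells (0.777, 0.641 to 0.934) and at 39.2 and 252 in other Müller glia. Serpina3n was higher in rolipram high-Gfap cells, at 462 and 264 (1.75, 1.48 to 2.05), but lower in the other Müller glia, at 50.6 and 161 (0.314). Vim stood at 2324 and 2169 (1.07, 0.998 to 1.15) against 1253 and 2298 in the others. Glul stood at 5132 and 1250 (4.11, 3.90 to 4.32) and at 9210 and 1194 in the others, and Spc25 at 1807 and 490 (3.69). Hes5 stood at 283 and 80.5 (3.51, 2.81 to 4.34), but at a ratio of 0.877 in the Y-positive, Xist-free cells. The small heat-shock gene Hspb1 stood at 81.1 and 24.9 (3.26).

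By list, the medians without astrocyte-marker cells were -0.85 for gliosis genes, -0.87 for Atf4 genes, -0.31 for metallothioneins and -0.09 for Stat3 and acute-phase genes, beside -0.08 over all genes. With those cells kept they were -0.98, -0.99, -0.63 and -0.21, beside -0.11 over all genes, and 7 of 14 gliosis genes, 7 of 15 Atf4 genes and 7 of 22 Stat3 and acute-phase genes were at least 2-fold lower. Without them these counts were 4 of 14, 6 of 15 and 3 of 21. In the other Müller glia the same 4 medians were -2.00, -1.58, -1.47 and -0.50, with 12 of 16 gliosis genes 2-fold lower. Homeostasis genes that did not select the cells had a median of 0.52 without astrocyte-marker cells and 0.13 with them, against 1.12 in the others. Rolipram high-Gfap cells were thus nearer to bleached vehicle on these lists than the other Müller glia were. High-Gfap cells of both libraries passed the same Gfap limit. Of the other Müller glia, 901 of 1040 in rolipram and 235 of 683 in bleached vehicle had no Gfap UMI. The part of this selection in the smaller differences was not tested. These classes were not tested against each other.

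**Figure D4:**
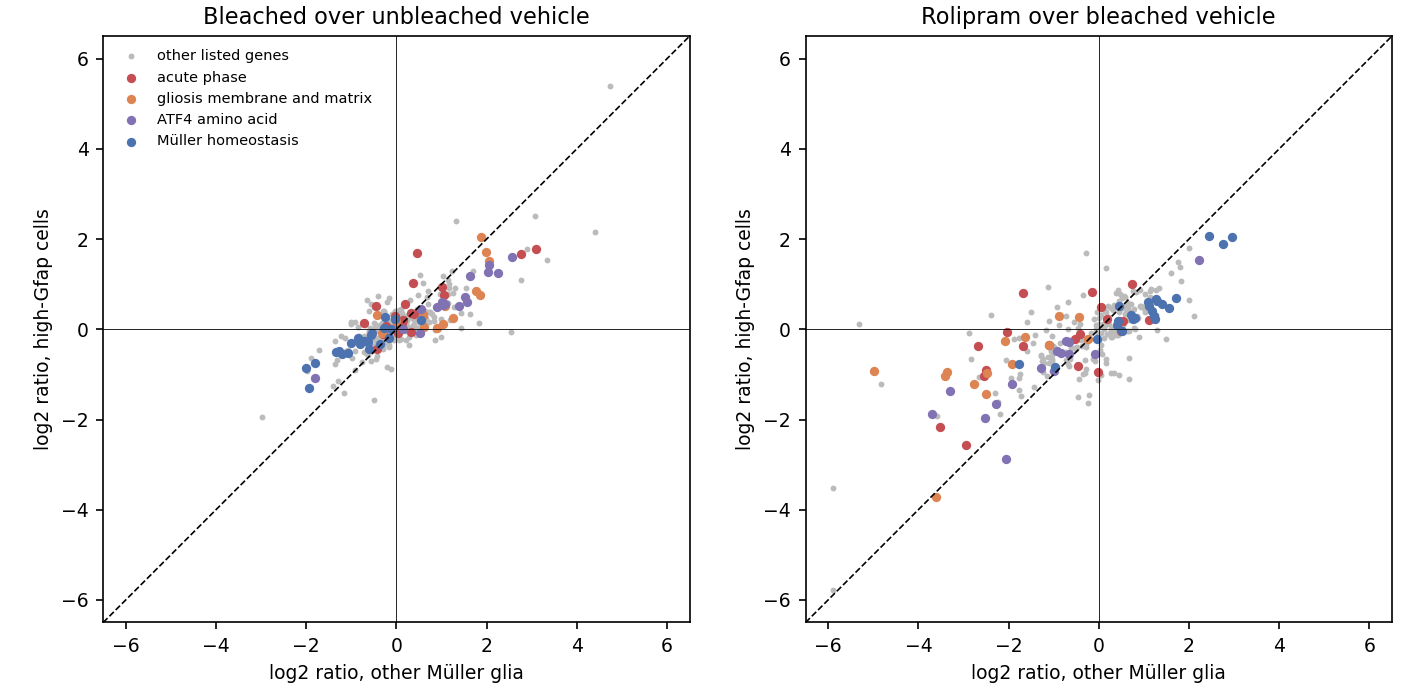
Each point is a listed gene, with the log2 ratio of CPM in other Müller glia on the horizontal and in high-Gfap cells on the vertical axis, without astrocyte-marker cells, for bleached over unbleached vehicle and for rolipram over bleached vehicle. The dashed line marks equal ratios, and gliosis and Atf4 genes lie nearer to 0 in high-Gfap cells, with rolipram medians of -0.85 and -0.87 against -2.00 and -1.58 for all other Müller glia.

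The BC11-38 library held 6 high-Gfap cells, 5 with astrocyte markers and 4 with Pax2, and all 6 with Xist and no Y-linked UMIs. No ratio was taken from them. Gfap in its other Müller glia, at 2.73 CPM, was the lowest of the 4 libraries.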

How the data were processed

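Single-cell libraries of mouse retina were made on a 10x Chromium system, per the labels. The submitters' processing notes name Cell Ranger 6.0.1, Seurat 3.2.2 and mm10, with no roles or counting settings given. The deposited matrix holds natural log values, ln(1 + UMIs per 10000 UMIs of the cell), for 20094 genes. UMIs were recovered from it: 100% of values came out whole within 0.001, for 140410160 UMIs in all and library medians of 3443 to 4585 UMIs per cell. Members and gene lists were chosen with earlier results of these data known. UMIs were summed per class and library. Within libraries, limma 3.58.1 (R 4.3.3) was fitted on log2(CPM + 5) of genes averaging at least 10 CPM, with library as a block and Benjamini-Hochberg adjustment. The libraries are the replicates of that test, and cells are not. Between libraries, ratios of genes with at least 100 UMIs over both were taken with exact 95% Poisson intervals and no test, and a floor of 3 UMIs where 1 library had 0. Gfap, Rsad2, Ifit1 and Ifit3 were left out of those counts. BC11-38 was left out, as it held 6 such cells. Named genes are the 12 called in each direction within libraries, the 8 of largest ratio in each direction between libraries with an interval excluding 1 and a level above that of rods, and the listed genes; 1 gene that this rule names is not reported here. Doublets were scored with scanpy 1.11.5 and kept, at 0.8% per 1000 cells, and left out as an alternative. Other limits, filters, pseudocounts, scalings, thinning and subsets of cells were tried. The main limma fit was run on simulated counts with changes added to some genes. These counts held no subset such as the Pax2 cells, so they do not show how the fit behaves with one.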

Additional observations from a re-analysis of the deposited data

How the results depend on the processing

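With the Gfap limit at 2, at 10 and after thinning to 2000 UMIs, the share of high-Gfap Müller glia was 33.7%, 8.03% and 32.3% in unbleached vehicle, 57.9%, 21.6% and 49.4% in bleached vehicle, and 11.8%, 2.73% and 10.9% under rolipram. The bleached vehicle library was highest and BC11-38 lowest under all 3. In unbleached vehicle the share was 29.9% in Y-positive, Xist-free cells, 8.33% with Xist and no Y-linked UMIs (30.1% and 7.69% without astrocyte-marker cells), 28.1% in cells of at least 10000 UMIs, 27.2% in those without astrocyte markers, and 3.57% in cells of 5000 to 10000 UMIs. The last range gave 26.6% in bleached vehicle, 3.52% in rolipram and 0.0% in BC11-38. Rolipram cells with Xist, no Y-linked UMIs and no astrocyte marker gave 3.21%. Cells of at least 10000 UMIs gave 29.8% in rolipram, 20% without astrocyte-marker cells, and 9.52% in BC11-38. BC11-38 fell to 0.185% without astrocyte-marker cells and to 0.0% without the highest doublet scores or in Y-positive, Xist-free cells.

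Within libraries, limma called 0 genes with library as a block, 0 with no replicate block and 0 to 0 with each library left out in turn. It called 40 by voom, 10 with vehicle libraries alone without astrocyte-marker cells, and 7 by voom without astrocyte-marker cells and BC11-38. The last 2 settings and the homeostasis list without selecting genes were chosen after seeing the data. So were the sets split by Xist and Y-linked UMIs and those split by depth. The same holds for the limma fit without astrocyte-marker cells and BC11-38, which gave the 3-library log2 differences and list counts above. Fits without the highest doublet scores, and those of the Y-positive, Xist-free cells, used 3 libraries because BC11-38 held no such high-Gfap cell.

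Counts between libraries followed the fold and the UMI minimum. For bleached over unbleached, genes higher numbered 495 at 1.5-fold, 25 at 3-fold, 196 with at least 50 UMIs and 55 with at least 200, and genes lower 236, 4, 81 and 15. Members that were Y-positive and Xist-free gave 14 lower, and 13 without astrocyte markers. For rolipram over bleached vehicle, genes higher numbered 738, 78, 412 and 117 and genes lower 1470, 145, 808 and 277. Genes lower numbered 811 in Y-positive, Xist-free cells, 946 without astrocyte markers too, and 830 with Gfap at 10, where few rolipram cells remain. Among members that were Y-positive and Xist-free, the bleached over unbleached ratios of Ecrg4 and Hes5 turned to 2.29 and 1.40. Without astrocyte-marker cells the rolipram ratios of Ecrg4 and Glycam1 turned to 0.0 and 0.0, since the rolipram cells left had no UMI of either. The cause of the other changes was not tested.

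Without astrocyte-marker cells 42 rolipram cells and 1 BC11-38 cell were left, and 1 library per group leaves no replicate for any comparison between groups.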

Other observations

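Müller glia with high antiviral transcripts, which the selection leaves out, also held Gfap. Of these cells, 7 of 15 in unbleached vehicle (46.7%, exact 95% interval 21.3 to 73.4) reached 5 per 10000 UMIs of Gfap, as did 17 of 53 in bleached vehicle (32.1%, 19.9 to 46.3) and 8 of 76 in rolipram (10.5%, 4.66 to 19.7). In BC11-38 it was 0 of 4. Keeping them changed the share of high-Gfap Müller glia to 20.6%, 37.9%, 5.62% and 1.02%.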
